A study of Rattus norvegicus with 4 samples.

Results

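Elastic fibres give connective tissue and vessel walls their recoil. Their core is elastin, which is laid down on a scaffold of microfibrils built from fibrillins and decorated by microfibril-associated glycoproteins, and emilin 1 sits at the border between elastin and microfibril. Microfibrils also hold latent TGF-beta, through its binding proteins, so the same scaffold that carries elastin stores a growth factor known to raise the transcription of matrix genes in mesenchymal cells. The genes described here were chosen by that role and by name, with earlier results of these data known. They are Eln (elastin), Fbn1 and Fbn2 (fibrillins 1 and 2), Mfap2, Mfap4 and Mfap5 (microfibril-associated proteins) and Emilin1. Of these 7 genes, 6 had an entry among the 23608 gene entries of the count table, and the 6 were among the 13634 genes that reached 1 CPM (reads scaled to library size) in at least 1 library. Mfap4 is not analysed here.

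The cells were primary microvascular cells of wild type rats, taken from subcutaneous soft connective tissue. The 4 groups, with 1 RNA-seq library each, were stiff extracellular matrix with A83-01, stiff matrix without it, soft matrix with A83-01, and soft matrix without it. A83-01 is a small molecule that blocks the kinase of the type I TGF-beta receptor. The layout asks how the transcripts of microvessels differ with matrix stiffness and with that inhibitor. The labels state neither how stiff each matrix was, nor the dose, nor whether libraries share animals. Short names in the labels take one form for the stiff libraries and another for the soft ones. If that form marks preparations of their own, their effect and that of stiffness cannot be told apart.

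The libraries held 32271844 to 33416200 counts, and the 6 genes together took 0.0903% of them in stiff with A83-01, 0.153% in stiff, 0.101% in soft with A83-01 and 0.0904% in soft. Vascular markers were present: the 10 endothelial markers summed to 1452 to 2515 CPM and the 9 pericyte markers to 2020 to 3934 CPM. The 9 fibroblast markers, which include collagen genes, summed to 44473 to 127090 CPM. Leukocyte, lymphatic endothelial, adipocyte, chondrocyte, Schwann cell, mesothelial and keratinocyte markers each summed to at most 441 CPM, and the keratinocyte genes Krt5 and Krt14 and the mesothelial genes Krt19 and Lrrn4 were at 0 counts in all 4 libraries. As a check of the inhibitor, 8 of 13 measured genes of a TGF-beta response list were at least 2-fold lower with A83-01 on stiff matrix, beside 4.47% of all genes. On soft matrix 6 were, beside 2.44%. On either matrix 0 were at least 2-fold higher, beside 7.80% on stiff and 2.18% on soft. Pmepa1, a feedback inhibitor of the pathway, was 9.33-fold lower on stiff and 4.42-fold lower on soft. In bulk RNA of this kind, fewer cells of a type and less RNA per cell cannot be told apart.

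Levels within a gene are given as CPM after scaling by trimmed mean of M-values (TMM). Elastin had 8.84 CPM in stiff with A83-01, 66.3 CPM in stiff, 2.03 CPM in soft with A83-01 and 1.08 CPM in soft. The stiff library without inhibitor stood far above the other 3, and no 2 of the 4 counting intervals overlapped. The counts behind these levels were 315, 1927, 68 and 36 in the same libraries. On soft matrix elastin thus rested on few counts. With the inhibitor its level was lower on stiff and higher on soft.

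Fbn1, the fibrillin that forms most microfibrils of adult tissue, had 683 CPM in stiff with A83-01, 1360 CPM in stiff, 554 CPM in soft with A83-01 and 362 CPM in soft, from 12133 to 39522 counts. Its order over the libraries was that of elastin, over a much smaller range. Fbn2, the fibrillin best known from developing tissue, had 5.53 CPM in stiff with A83-01, 52.7 CPM in stiff, 0.597 CPM in soft with A83-01 and 8.96 CPM in soft. For Fbn2 both libraries with A83-01 were below both libraries without it. The lowest of its levels rested on 20 counts, and the highest on 1531.

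The glycoproteins Mfap2 and Mfap5, also called MAGP1 and MAGP2, bind fibrillins, and they followed unlike patterns. Mfap2 had 3.42 CPM in stiff with A83-01, 0.722 CPM in stiff, 0.746 CPM in soft with A83-01 and 4.42 CPM in soft, from 122, 21, 25 and 148 counts. Its counting intervals overlapped between stiff and soft with A83-01, and also between stiff with A83-01 and soft, so the 4 libraries fell into a low and a high pair. Mfap5 had 46.8 CPM in stiff with A83-01, 77.0 CPM in stiff, 11.9 CPM in soft with A83-01 and 14.9 CPM in soft. Both stiff libraries were above both soft ones for Mfap5. Emilin1 ran the other way, with 98.4 CPM in stiff with A83-01, 184 CPM in stiff, 406 CPM in soft with A83-01 and 485 CPM in soft. It is known to bind integrins and to restrain the maturation of TGF-beta.

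**Figure D1:**
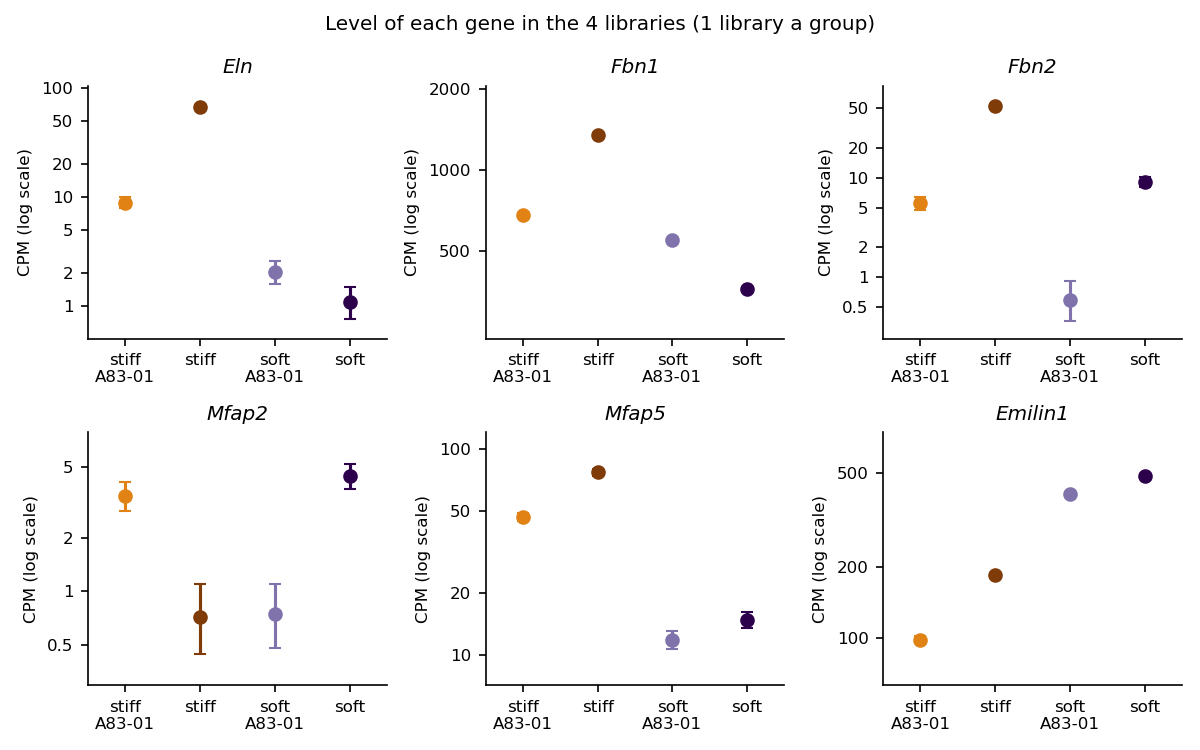
TMM-normalised CPM of the 6 genes (vertical axes, log scale, a range for each gene) in the 4 libraries, left to right stiff with A83-01, stiff, soft with A83-01 and soft. Points are single libraries and bars are 95% exact Poisson intervals, which cover counting error only; Eln, Fbn1, Fbn2 and Mfap5 are highest in stiff, Mfap2 and Emilin1 in soft.

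Compared with the other genes, the 6 moved widely between libraries. The highest and lowest library differed 80.2-fold for Fbn2, 58.4-fold for Eln, 6.46-fold for Mfap5, 5.72-fold for Mfap2, 4.92-fold for Emilin1 and 3.75-fold for Fbn1. On the log2 scale the median range of the 13634 genes was 0.59. A larger range than that of Fbn2 was seen in 0.374% of genes, than that of Eln in 0.543%, and than that of Fbn1, the least variable of the 6, in 10.4%.

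Per transcript length, in the deposited FPKM values, the make-up of the set differed between matrices. Emilin1 led on soft matrix and Fbn1 on stiff matrix. Emilin1 had 22.1 FPKM in stiff with A83-01, 33.7 FPKM in stiff, 87.5 FPKM in soft with A83-01 and 105 FPKM in soft. Fbn1 had 59.6 FPKM in stiff with A83-01, 96.5 FPKM in stiff, 46.3 FPKM in soft with A83-01 and 30.5 FPKM in soft. Emilin1 therefore made up 17.1% and 16.4% of the 6 genes' summed FPKM in stiff with A83-01 and stiff, against 60.2% and 68.6% in soft with A83-01 and soft. Mfap5 was the second of the 6 on stiff matrix, with 32.5% of the sum in stiff with A83-01 and 27.4% in stiff, and the third on soft matrix, with 7.02% in soft with A83-01 and 8.40% in soft. Elastin reached its largest share, 6.83%, in stiff. Elsewhere it held 1.78% in stiff with A83-01, 0.436% in soft with A83-01 and 0.221% in soft. The length implied by count over FPKM was 4086 and 4125 bases for Eln in stiff with A83-01 and stiff. In soft with A83-01 and soft it was 3327 and 3282 bases. The FPKM values of Eln differed less between matrices than its CPM values. In stiff over soft its log2 ratio was 5.87 with TMM scaling, 5.64 with scaling by total counts and 5.38 in FPKM. Scaling and implied length thus both entered that gap.

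**Figure D2:**
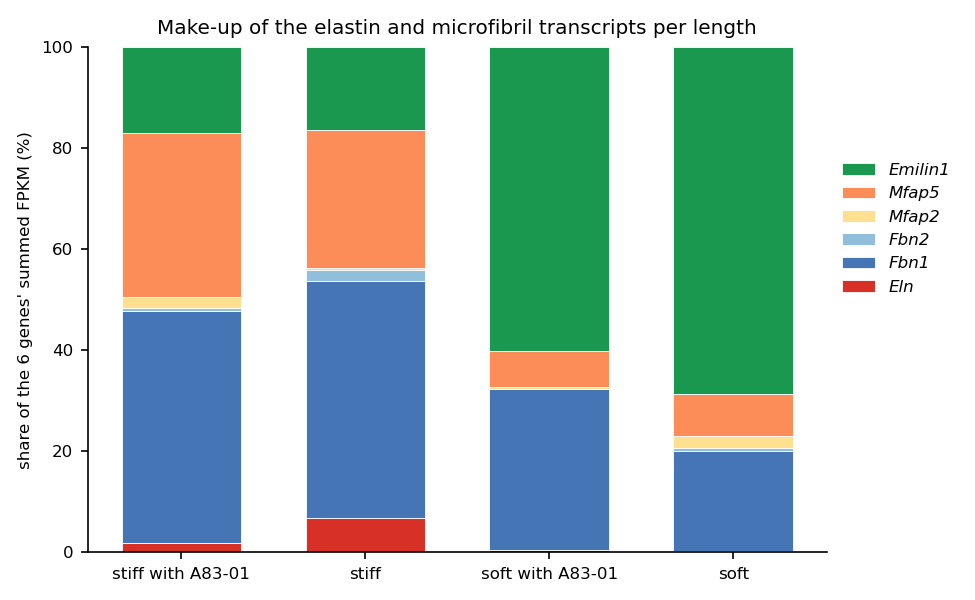
Share of the summed FPKM of the 6 genes (vertical axis, percent) held by each gene in stiff with A83-01, stiff, soft with A83-01 and soft. Emilin1 is the widest band of each soft bar (60.2% with A83-01, 68.6% without) and Fbn1 is the widest band of each stiff bar (46.0% with A83-01, 46.8% without).

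Within each family the balance of paralogues also shifted. For every 1000 counts of Fbn1 there were 8.09 counts of Fbn2 in stiff with A83-01, 38.7 in stiff, 1.08 in soft with A83-01 and 24.7 in soft. This ratio does not depend on library scaling, and it was lower in both libraries with A83-01 than in either without it. Mfap5 had 14.8 times the FPKM of Mfap2 in stiff with A83-01, 120 times in stiff, 17.4 times in soft with A83-01 and 3.63 times in soft. Mfap5 was the higher MAGP in all 4 libraries, with the widest gap in stiff. Emilin1 had 144 and 136 counts for every 1000 of Fbn1 in stiff with A83-01 and stiff, against 733 and 1338 in soft with A83-01 and soft.

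Stiff matrix was compared with soft matrix first without the inhibitor. With 1 library a group, the ratio of a pair has no replicate check, and its 95% interval (Clopper-Pearson, conditional on the counts) covers counting error only. Elastin was 58.4-fold higher in stiff than in soft (44.4 to 88.3), the fifth highest ratio of the 13634 genes. Fbn2 was 5.84-fold higher (5.19 to 6.67), Mfap5 5.16-fold higher (4.70 to 5.72) and Fbn1 3.75-fold higher (3.68 to 3.83). Mfap2 was 5.72-fold lower (3.86 to 10.2) and Emilin1 2.63-fold lower (2.55 to 2.71). So 4 of 6 genes were at least 2-fold higher, where 5.33% of all genes were, and 2 of 6 were at least 2-fold lower, where 8.58% were. The median log2 ratio of the 6 was 2.14, beside 0.00 over all genes.

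With A83-01 in both libraries, the matrix difference was smaller for elastin and for Fbn1. Elastin was 4.26-fold higher in stiff with A83-01 than in soft with A83-01 (3.34 to 5.75) and Fbn1 1.23-fold higher (1.21 to 1.26). Fbn2 was 8.50-fold higher (5.83 to 15.5), Mfap5 3.92-fold higher (3.53 to 4.41) and Emilin1 4.12-fold lower (3.97 to 4.28). Mfap2 lay on the other side of the comparison than without inhibitor, 4.32-fold higher (2.96 to 7.36). Here 4 of 6 genes were at least 2-fold higher, beside 6.88% of all genes, and 1 of 6 was at least 2-fold lower, beside 6.72%.

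The test of stiffness used all 4 libraries in an additive model with the inhibitor as the other term, with the quasi-likelihood F-test of edgeR and p-values adjusted over the 13634 genes (Benjamini-Hochberg). It has 1 residual degree of freedom, and edgeR draws each gene's spread towards that of the other genes. The p-values thus rest in part on spread borrowed from other genes. They reflect only how these 4 libraries scatter, and a stiffness response that differs with A83-01 counts as spread. Mfap5 rose on stiff matrix, with a log2 change of 2.18 (SE 0.167, adjusted p = 0.0103). Fbn2 rose as well, with a log2 change of 2.79 (SE 0.225, adjusted p = 0.0116). Emilin1 fell, with a log2 change of -1.72 (SE 0.221, adjusted p = 0.0260). All 3 had the same direction in both pairs of libraries. The test used these same libraries, so that agreement is part of the call and not separate support. These are 2 of 6 genes called higher, beside 2.35% of all genes, and 1 of 6 called lower, beside 3.29%.

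The other 3 genes did not pass that test. Elastin had a log2 change of 3.99 (SE 0.980, adjusted p = 0.0912 by edgeR), with both pairs higher on stiff matrix. Across the alternatives its adjusted p ran from 1.1e-08 to 0.171, and it passed by limma-voom and with total-count scaling. Fbn1 had a log2 change of 1.11 (SE 0.426, adjusted p = 0.198 by edgeR), and of its alternatives, whose adjusted p ran from 0.00125 to 0.593, it passed with total-count scaling. Mfap2, whose pairs had opposite directions, had a log2 change of -0.18 (SE 1.30, adjusted p = 0.943 by edgeR).

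Smooth muscle markers moved with stiffness in the same libraries. The 10 markers of that list, contractile genes such as Acta2, summed to 5565 CPM in stiff with A83-01 and 8216 CPM in stiff, against 432 CPM in soft with A83-01 and 723 CPM in soft. Of the 10, 9 were at least 2-fold higher in stiff than in soft, beside 5.33% of all genes. With A83-01 in both, 9 were higher, beside 6.88%. In the additive test 9 rose, beside 2.35%. None of the 10 was at 0 counts in any library. The fibroblast marker sum was highest in stiff, at 127090 CPM, with 44473 CPM in stiff with A83-01, 50388 CPM in soft with A83-01 and 70451 CPM in soft. Much of that sum was collagen, since Col1a1 alone had 69475 CPM in stiff. By gene, 1 of the 9 fibroblast markers was at least 2-fold higher in stiff than in soft, beside 5.33%, and 2 lower, beside 8.58%. With A83-01 in both, 2 were higher, beside 6.88%, and 2 lower, beside 6.72%. In the additive test 2 of the 9 fell, beside 3.29%. Of the 5 kept adipocyte markers, 4 were at least 2-fold lower in stiff than in soft, beside 8.58%, and 0 higher, beside 5.33%. With A83-01 in both, 4 were lower, beside 6.72%, and 1 higher, beside 6.88%. In the additive test 3 of the 5 fell, beside 3.29%. The part of these cell type markers in the elastin and microfibril differences was not tested.

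Among these genes, the RefSeq promoter tables held windows for Fbn1, Fbn2, Mfap2 and Mfap5. The windows of Fbn2 and Mfap5 are shown because these are the pair that rose with stiffness and because their windows begin at the outer end of the annotated gene, while those of Fbn1 and Mfap2 lie inside it. Both give the 250 bases before the transcription start in build GRCr8, in the direction of the gene. Capitals mark matches, on either strand, to CAGAC (SMAD) and GGAATG (TEAD), so GTCTG and CATTCC are matches on the opposite strand. The Fbn2 window is chr18:53901993-53902242, minus strand, and the Mfap5 window is chr4:157399669-157399918, plus strand.
Fbn2: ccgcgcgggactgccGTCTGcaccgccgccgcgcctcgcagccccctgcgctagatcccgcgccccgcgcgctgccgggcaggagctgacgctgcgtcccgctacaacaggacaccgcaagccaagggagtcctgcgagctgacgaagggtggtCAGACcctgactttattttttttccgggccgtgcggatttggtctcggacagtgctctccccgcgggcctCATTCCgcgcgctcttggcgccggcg
Mfap5: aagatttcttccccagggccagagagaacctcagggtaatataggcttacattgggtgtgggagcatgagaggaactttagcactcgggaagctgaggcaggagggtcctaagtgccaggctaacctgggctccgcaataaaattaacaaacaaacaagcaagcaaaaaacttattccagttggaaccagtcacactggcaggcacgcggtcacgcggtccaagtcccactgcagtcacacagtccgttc

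The Fbn2 window held CAGAC 2 times, at 235 to 231 and at 96 to 92 bases before the start, and GGAATG once, at 26 to 21 bases. Fbn1 and Mfap2 held CAGAC once each, and Mfap2 also GGGCGG (SP) once. The Mfap5 window held none of the motifs searched, which also included TGACTCA or TGAGTCA (AP-1), TATAAA and the CArG box bound by serum response factor. No matches overlapped. Of 33469 promoter windows of the same length, 42.9% held CAGAC, 30.5% GGGCGG, 12.9% TATAAA, 12.1% GGAATG, 4.05% an AP-1 match and 1.5% a CArG box, so a CAGAC match is common. The Fbn2 window was 70.0% G or C and the Mfap5 window 51.6%, beside a median of 51.2%.

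**Figure D3:**
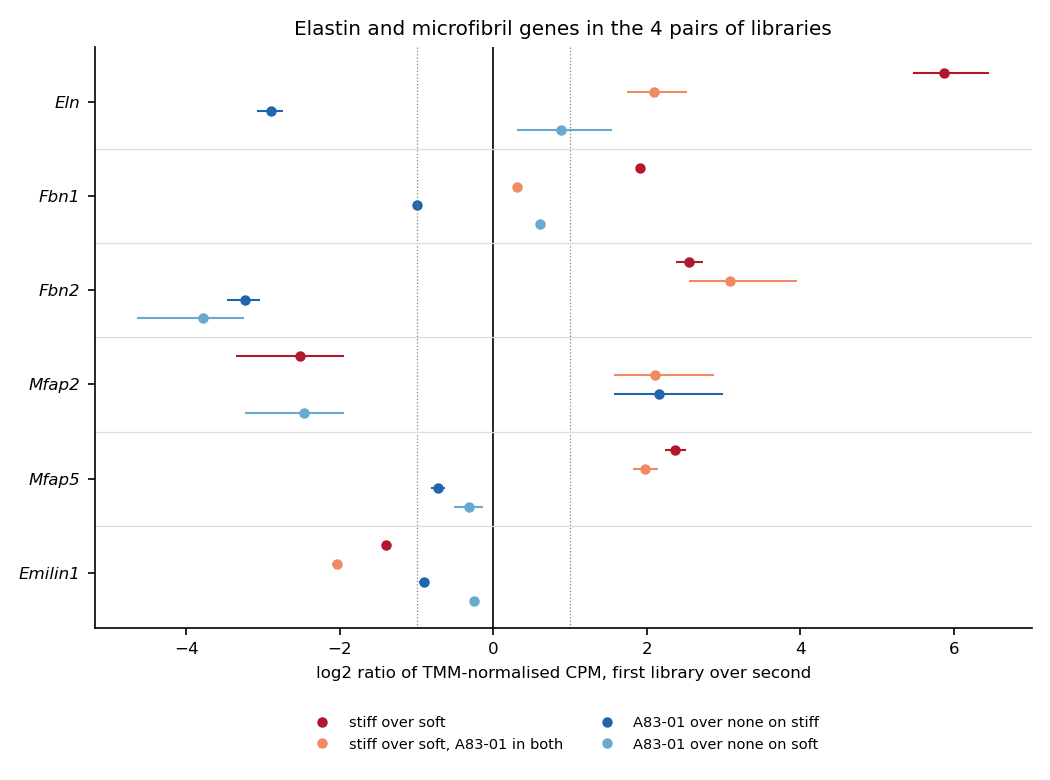
log2 ratio of TMM-normalised CPM (horizontal axis) of the 6 genes in the 4 pairs of libraries, with lines for the 95% counting interval and dotted lines at 2-fold. The matrix comparisons (red and orange) lie right of 0 for Eln, Fbn1, Fbn2 and Mfap5, left of 0 for Emilin1, and on opposite sides for Mfap2.

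A83-01 was compared with no inhibitor on each matrix, which asks how far these transcripts differed with the inhibitor. The pairs share libraries with the matrix comparisons above. On stiff matrix, Fbn2 was 9.44-fold lower with A83-01 (8.21 to 11.1) and Eln 7.46-fold lower (6.66 to 8.48). Mfap2 was 4.45-fold higher (2.97 to 7.93). The remaining 3 were under 2-fold, with Fbn1 1.99-fold lower (1.96 to 2.02), Emilin1 1.87-fold lower (1.79 to 1.95) and Mfap5 1.65-fold lower (1.54 to 1.75). Fbn1 is so near the threshold that it passed, with a log2 ratio of -1.01, when libraries were scaled by DESeq2's size factors. Other alternatives moved it away from the threshold, to -0.71 with total-count scaling and -0.69 in FPKM. With total-count scaling the log2 ratio was -0.62 for Emilin1 and -0.43 for Mfap5. Thus 2 of 6 genes were at least 2-fold lower, beside 4.47% of all genes, and 1 of 6 at least 2-fold higher, beside 7.80%.

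On soft matrix, the 2 genes past 2-fold were Fbn2, 13.7-fold lower with A83-01 (9.55 to 24.9), and Mfap2, 5.56-fold lower (3.86 to 9.45). A larger ratio than that of Fbn2 in either direction was seen in 0.147% of genes. Eln was 1.84-fold higher with A83-01 (1.24 to 2.91), on 68 and 36 counts, and Fbn1 1.53-fold higher (1.49 to 1.56). Mfap5 was 1.25-fold lower (1.10 to 1.43) and Emilin1 1.19-fold lower (1.17 to 1.22). So 2 of 6 genes were at least 2-fold lower, beside 2.44% of all genes, and 0 of 6 at least 2-fold higher, beside 2.18%.

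In the additive test of A83-01, with stiffness as the other term, none of the 6 genes was called by edgeR, where 0.0440% of all genes were called lower and 0% higher. At an unadjusted p under 0.05, 3 of the 6 were lower, beside 6.04% of all genes, and 0 higher, beside 7.25%. DESeq2 called 1 of the 6 lower, beside 1.79% of all genes, and limma-voom 0, beside 0.0220%. The gene called by DESeq2 was Fbn2, lower with A83-01 in both pairs, with a log2 change of -3.53 by DESeq2. By edgeR the log2 change of Fbn2 was -3.49 (SE 0.230). It ranked seventh by p among all genes there and missed the threshold (adjusted p = 0.0547 by edgeR). Across the alternatives its adjusted p ran from 1.0e-20 to 0.998. The other adjusted p-values by edgeR were 0.296 for Mfap5, 0.363 for Emilin1, 0.586 for Eln, 0.879 for Fbn1 and 0.962 for Mfap2.

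Cell type markers also moved with A83-01 on stiff matrix, where 7.80% of all genes were at least 2-fold higher. Of the kept markers, 4 of 8 pericyte, 3 of 10 endothelial and 4 of 5 adipocyte genes were at least 2-fold higher with A83-01 on stiff. In these lists 0 were at least 2-fold lower there, beside 4.47% of all genes. Of 10 smooth muscle markers 0 were higher and 1 lower, and of 9 fibroblast markers 3 were higher and 2 lower. Of 3 kept chondrocyte markers 0 were higher and 2 lower, and of 2 kept mesothelial markers 0 were higher and 1 lower. On soft matrix 0 of 8 pericyte, 0 of 10 endothelial and 2 of 5 adipocyte genes were at least 2-fold higher, beside 2.18% of all genes. Of the smooth muscle, fibroblast, chondrocyte and mesothelial markers 0 were higher there. Lower on soft, beside 2.44%, were 1 of 10 endothelial, 3 of 10 smooth muscle, 2 of 9 fibroblast and 2 of 3 chondrocyte markers. Of the pericyte, adipocyte and mesothelial markers 0 were lower. The endothelial markers summed to 2515 CPM in stiff with A83-01 and 1452 CPM in stiff, and the pericyte markers to 3934 CPM and 3196 CPM in the same libraries. The adipocyte markers summed to 44.1 CPM in stiff with A83-01 and 21.4 CPM in stiff. Their part in the elastin and microfibril differences was not tested.

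The A83-01 responses of 3 genes differed at least 2-fold between matrices. The log2 response on stiff minus that on soft was -3.78 for Eln (-4.37 to -3.18), -1.60 for Fbn1 (-1.64 to -1.56) and 4.63 for Mfap2 (3.75 to 5.50). In each the inhibitor pair had opposite directions on the 2 matrices. With total-count scaling the difference for Fbn1 was -1.33, outside its counting interval. Fbn2 had a difference of 0.54 (-0.12 to 1.20), an interval that holds 0. The 1 gene higher on stiff stands beside 6.26% of all genes, and the 2 lower on stiff beside 3.20%. With 1 library a group this difference has no residual degree of freedom, so it was not tested.

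**Figure D4:**
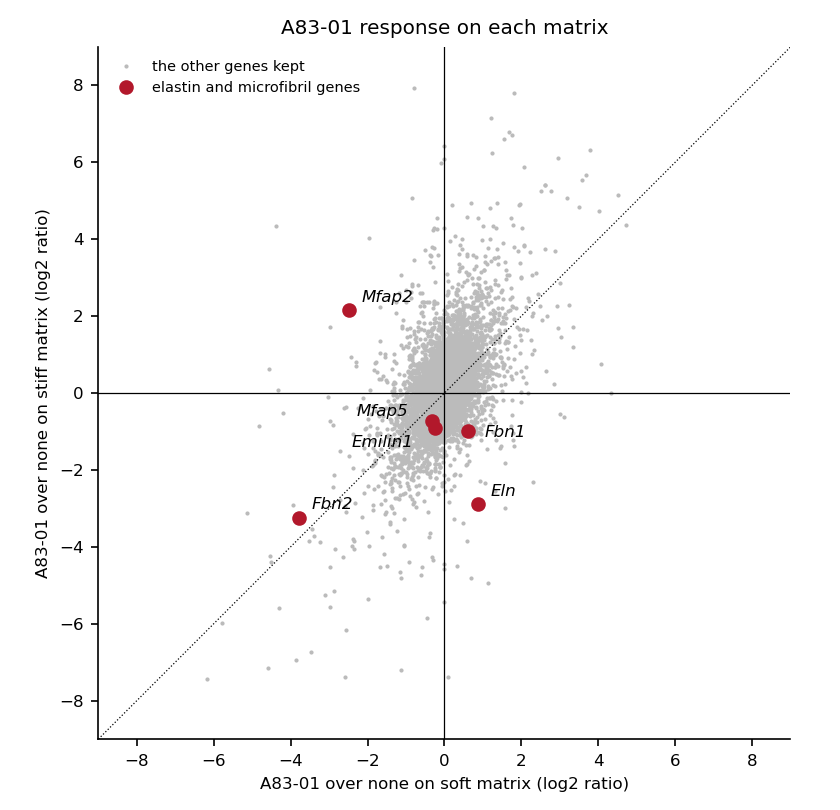
log2 ratio of A83-01 over no inhibitor on stiff matrix (vertical axis) against that on soft matrix (horizontal axis), for the 6 genes (red) and the other genes kept (grey), with a dotted line where both are equal. Fbn2 lies near the line at -3.24 on stiff and -3.78 on soft, while Eln and Fbn1 are below 0 on stiff and above 0 on soft, and Mfap2 the reverse.

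Elastic fibres need further proteins for assembly, crosslinking, anchorage and turnover, and 60 such genes were listed by role, of which 57 had an entry and 51 were kept. They did not share a direction: in stiff over soft 11 of 51 were at least 2-fold higher, beside 5.33% of all genes, and 7 lower, beside 8.58%. With A83-01 in both, 9 were higher, beside 6.88%, and 8 lower, beside 6.72%. With A83-01 on stiff 6 were higher, beside 7.80%, and 5 lower, beside 4.47%, and on soft 3 were higher, beside 2.18%, and 6 lower, beside 2.44%. In the additive test of stiffness, 4 rose, beside 2.35% of all genes, and 5 fell, beside 3.29%. The median log2 ratios of the 51 lay between -0.27 and 0.11 over the 4 pairs.

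The fibulins guide elastin onto microfibrils and the widest ratios among the named partners were theirs. Fbln2, fibulin 2, had 17.0 CPM in stiff with A83-01, 2096 CPM in stiff, 9.79 CPM in soft with A83-01 and 143 CPM in soft. It was 123-fold lower with A83-01 on stiff (114 to 134) and 14.5-fold lower on soft (13.1 to 16.4). Efemp1, fibulin 3, was higher with A83-01 than without it on both matrices, with 121 CPM in stiff with A83-01, 1.44 CPM in stiff, 41.3 CPM in soft with A83-01 and 2.93 CPM in soft. It was 80.2-fold higher with A83-01 on stiff (61.7 to 116) and 13.9-fold higher on soft (11.5 to 17.5). Fbln5, which tethers elastin to cells, had 24.7 CPM in stiff with A83-01, 175 CPM in stiff, 35.9 CPM in soft with A83-01 and 62.2 CPM in soft, so stiff alone stood high, as for Eln. The additive test did not call these 3 for A83-01 (adjusted p by edgeR 0.147 for Fbln2, 0.108 for Efemp1 and 0.277 for Fbln5). Fbln7 rose on stiff matrix, with a log2 change of 2.44 (SE 0.369, adjusted p = 0.0355 by edgeR).

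The latent TGF-beta binding proteins split by member. Ltbp4, which carries latent TGF-beta and supports elastic fibre assembly, rose on stiff matrix, with a log2 change of 2.26 (SE 0.148, adjusted p = 0.00817 by edgeR), with 37.5 and 47.1 CPM in stiff with A83-01 and stiff against 7.79 and 9.89 CPM in soft with A83-01 and soft. Ltbp2, which binds fibrillin but not latent TGF-beta, fell, with a log2 change of -1.80 (SE 0.159, adjusted p = 0.0142). The ADAMTS and ADAMTS-like list held enzymes and relatives that act on fibrillin microfibrils. Of its 6 kept genes, 3 were at least 2-fold higher in stiff than in soft, beside 5.33% of all genes. With A83-01 in both, 1 was higher, beside 6.88%. In both comparisons 0 were at least 2-fold lower, beside 8.58% and 6.72%. Adamts6, 1 of the 3, had 1.12 CPM in stiff with A83-01 and 6.23 CPM in stiff. In soft with A83-01 it had 0.567 CPM and in soft 2.03 CPM. It was lower with A83-01 on both matrices, 5.32-fold on stiff and 3.33-fold on soft, and was not called (adjusted p = 0.153 for A83-01 by edgeR).

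Lysyl oxidases crosslink elastin and collagen. Of the 5 genes, 1 was at least 2-fold higher in stiff than in soft, beside 5.33% of all genes, and 1 lower, beside 8.58%. With A83-01 in both, 0 were higher, beside 6.88%, and 2 lower, beside 6.72%. Lox had 77.7 CPM in stiff with A83-01, 467 CPM in stiff, 373 CPM in soft with A83-01 and 754 CPM in soft, so unlike elastin it was highest in soft. It was 6.01-fold lower with A83-01 on stiff and 2.02-fold lower on soft, and was not called (adjusted p = 0.219 for A83-01 by edgeR). Loxl4 fell on stiff matrix, with a log2 change of -1.40 (SE 0.218, adjusted p = 0.0372 by edgeR). Emilin2, a relative of Emilin1, fell too, with a log2 change of -1.35 (SE 0.181, adjusted p = 0.0280).

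Of 8 kept integrin chains that bind these matrix proteins, 2 rose on stiff matrix, beside 2.35% of all genes, and 0 fell, beside 3.29%. Itga8 had a log2 change of 2.37 (SE 0.158, adjusted p = 0.00823 by edgeR), with 45.5 and 84.0 CPM in stiff with A83-01 and stiff against 7.88 and 18.1 CPM in soft with A83-01 and soft. Itga9, a chain of the integrin that binds emilin 1, had one of 1.19 (SE 0.161, adjusted p = 0.0283), while Emilin1 itself fell. Among proteases that cleave elastin or fibrillin, Mmp3 fell on stiff matrix, with a log2 change of -4.15 (SE 0.389, adjusted p = 0.0148) and Mmp9 fell with one of -2.70 (SE 0.340, adjusted p = 0.0252). Mmp9 had 263 and 513 CPM in stiff with A83-01 and stiff, against 2454 and 2322 CPM in soft with A83-01 and soft. Of the 5 kept genes for elastin handling and its receptor complex, 0 were at least 2-fold higher in any pair, beside 2.18% to 7.80% of all genes. In the same pairs 0 were lower, beside 2.44% to 8.58%. Of the 5 kept protease inhibitor genes, 3 were at least 2-fold higher with A83-01 on stiff, beside 7.80%. In stiff over soft with A83-01 in both, 2 were higher, beside 6.88%. The other pairs had 0 higher, and 0 were lower in any pair.

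**Figure D5:**
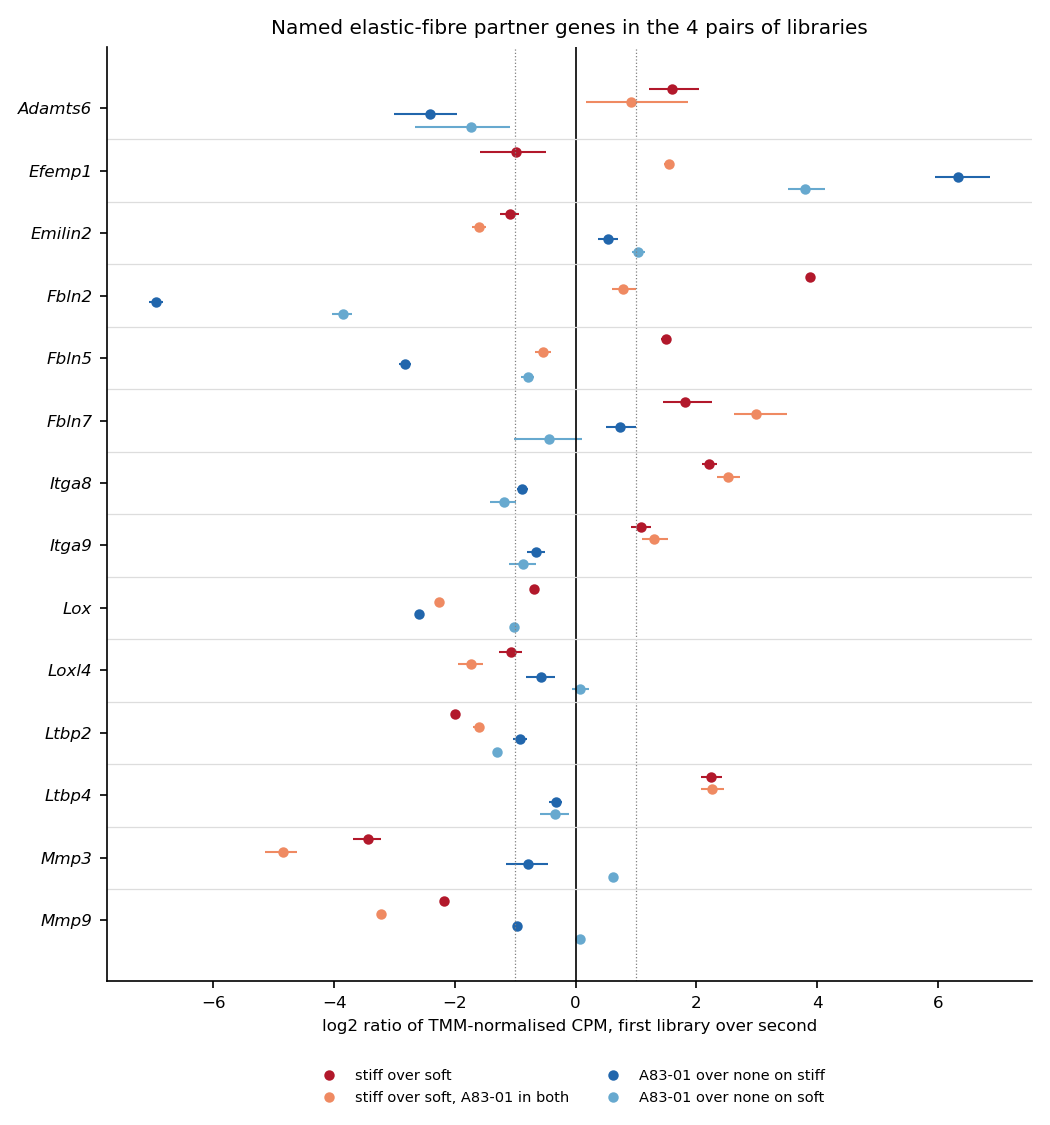
log2 ratio of TMM-normalised CPM (horizontal axis) of the 14 named partner genes in the 4 pairs of libraries, with lines for the 95% counting interval and dotted lines at 2-fold. Fbln2 and Efemp1 show the widest inhibitor ratios (blue), in opposite directions, and the matrix ratios (red and orange) of Itga8, Itga9, Ltbp4 and Fbln7 lie right of 0 in both pairs.

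The genes nearest to each gene in pattern were named by Euclidean distance over the 4 libraries, on log2 CPM centred on its mean, among genes with a mean of at least 10 CPM. Emilin1 had the closest neighbours, Il4r, a chain of the interleukin 4 receptor, at a distance of 0.129 and Ptprn, a phosphatase-like protein of secretory granules, at 0.176. Fbn1 was nearest to Adam19, a membrane metalloprotease, at 0.275 and to Rpl31l4 at 0.324, whose count is uncertain because near-identical ribosomal protein copies can share reads. Mfap5 was nearest to Ltbp4 at 0.287 and to the tropomyosin gene Tpm1 at 0.331. Fbn2 was nearest to Itga11, a chain of a collagen-binding integrin, at 0.432, and to the collagen gene Col11a1 at 1.10. Itga11 had 49.5 CPM in stiff with A83-01, 648 CPM in stiff, 7.67 CPM in soft with A83-01 and 81.1 CPM in soft.

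Elastin and Mfap2 had no close neighbour among these genes. Mfap2 itself, at 0.722 to 4.42 CPM, was under the minimum of 10 CPM, so genes at its level were not searched. The nearest to Eln were Lbp, the lipopolysaccharide-binding protein gene, at 1.67, Sytl2, which acts in vesicle transport, at 1.71, and NEWGENE_1308171 at 1.96. Unlike Eln, which had 2.03 CPM in soft with A83-01 and 1.08 CPM in soft, each was lower with the inhibitor there. Lbp had 1.52 and 4.18 CPM, Sytl2 2.69 and 3.26 CPM and NEWGENE_1308171 3.25 and 6.72 CPM in the same libraries. The nearest to Mfap2 were Klf15, a transcription factor gene, at 1.35 and Ramp3, a partner of the adrenomedullin receptor, at 1.37. Among the 6 genes themselves, the closest pair was Fbn1 and Mfap5 at 1.27, and the farthest was Eln and Mfap2 at 5.99.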

How the data were processed

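Bulk mRNA of 4 groups of rat microvascular cells, 1 library each, was sequenced in pairs on a DNBSEQ-T7 instrument after oligo(dT) capture, random priming and PCR, per the labels' protocols. No molecular identifiers or strand step are mentioned, so reads of a gene and an antisense neighbour may be mixed, and intervals cover counting error only. The authors deposited a table of whole-number counts per gene, not normalised, and a table of FPKM values per gene, which they scaled by length and library size. Per the submitters' processing notes the tools were HISAT2 and edgeR and the build Rnor_6.0. The counter, gene models and versions used were not given in the sources used here. Count over FPKM was constant within 5% between libraries for 93.9% of the 10648 genes that had 100 counts or more throughout, a set without Eln. No 2 libraries held identical counts.

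Groups were taken from the sample titles. A gene was kept where any library reached 1 CPM after TMM scaling (13634 genes). Total counts were 33416200 in stiff with A83-01, 33178552 in stiff, 32271844 in soft with A83-01 and 32475473 in soft, with TMM factors of 1.07, 0.876, 1.04 and 1.03. A floor of 3 counts stood for 0.0842 to 0.103 CPM. Pair ratios used a prior count of 2, with 95% Clopper-Pearson intervals of the ratio of counts, and "at least 2-fold" means a ratio of 2 or more, either way, whose interval leaves out 1. The additive model of stiffness and A83-01 was tested with edgeR 4.0.16 (quasi-likelihood, adjusted p threshold 0.05) in R 4.3.3. DESeq2 1.42.0 and limma 3.58.1, other scalings, filters, priors and fold thresholds were the alternatives. The calculations were tested on simulated data. Promoter windows came from RefSeq tables of build GRCr8, which differs from that of the files, and 4 of the 7 genes had an entry; gene symbols of the files were used as given.

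The genes and all lists were chosen with earlier results of these data known. All 7 genes were named, 6 of them with values. A partner gene was named when it passed 4-fold in any pair with at least 100 counts in 1 of the 2 libraries (at most 4 in each list, direction and pair) or was called by an additive test, and the 3 nearest genes to Eln and the 2 nearest to each other gene were named. Leaving out any library leaves the additive model 0 residual degrees of freedom, so the pair ratios are the values without the other 2 libraries.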

Additional observations from a re-analysis of the deposited data

Results flagged for a closer look

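With 1 library a group none of the differences here was tested, and each is named because the 2 settings lay on opposite sides of 0. The A83-01 response (log2 ratio, inhibitor over none) of Eln was -2.90 on stiff matrix and 0.88 on soft matrix, a difference of -3.78. That of Fbn1 was -0.99 on stiff and 0.61 on soft, a difference of -1.60. Mfap2 had 2.15 on stiff and -2.47 on soft, a difference of 4.63. The same difference of 4.63 appears for Mfap2 as the matrix response (log2 ratio, stiff over soft), which was 2.11 with A83-01 and -2.52 without it.

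Among the partner genes, the matrix response of Efemp1 was 1.54 with A83-01 and -0.99 without it, a difference of 2.53. That of Fbln5 was -0.54 with A83-01 and 1.49 without it, a difference of -2.03. The A83-01 response of Mmp3 was -0.79 on stiff and 0.62 on soft, a difference of -1.42, and that of Mmp9 was -0.97 on stiff and 0.08 on soft, a difference of -1.04.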

How the results depend on the processing

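Each direction of the 6 genes in each pair held under every scaling, prior and FPKM alternative. Total-count scaling shifted the median log2 ratio of all genes by -0.23 in stiff over soft, where 24.8% of genes past 2-fold were then higher against 38.3% with TMM, and by 0.28 for A83-01 on stiff, where 80.8% were higher against 63.6%. For A83-01 on stiff it gave 1656 genes at least 2-fold higher and 393 lower. Without a filter, 506 genes were higher and 558 lower with A83-01 on soft. With 1 CPM required in every library, genes higher and lower numbered 442 and 686 (stiff over soft), 621 and 517 (A83-01 in both), 662 and 389 (A83-01 on stiff), and 133 and 178 (A83-01 on soft). At 4-fold, 1 of the 6 was lower in stiff than in soft. At 1.5-fold, 5 were lower with A83-01 on stiff and 2 higher on soft. The shares of all genes at these 2 thresholds were not computed, so these counts have no background to be read against. In the stiffness test, DESeq2 called 574 genes higher and 737 lower, total-count scaling 623 and 1135, and the model without A83-01 13 and 17. Of the 6 genes, 4 were called higher with total-count scaling, 0 higher and 0 lower without A83-01, and 1 higher where Fbn2 failed the stricter filter. In the A83-01 test, DESeq2 called 219 genes higher and 244 lower, total-count scaling 565 and 270, no filter 10 and 17, limma-voom 3 lower, the stricter filter 2 lower, and the model without stiffness 0 lower. Fbn2 alone of the 6 was then called, 1 lower each by DESeq2, with total-count scaling and with no filter. The A83-01 log2 change of Mmp3, -0.01 by edgeR, was 0.31 by limma-voom, 0.11 with total-count scaling and 0.54 without stiffness. The cause of these changes was not tested. The low counts of Mfap2, and of Eln and Fbn2 on soft matrix, limit their ratios. No paired analysis was possible because each group has 1 library.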
